A study of Arabidopsis thaliana with 12 samples.

Results

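SCPL43, SCPL49, scpl25, scpl35 and scpl46 are 5 serine carboxypeptidase-like genes of Arabidopsis, followed here through 12 harvests of seedlings kept in constant light. They were selected on the measured values of these same arrays, by gene symbol and with level, amplitude and peak time in view, so those 3 quantities are given as a description. They are 5 of the 29 family genes that 1 probe set each names here, and 5 of the 9161 genes tested. Each of the 5 has a single probe set, with no second one to compare it with. The plants were wild-type Col-0 seedlings carrying the luciferase reporter CCR2::LUCIFERASE, whose promoter is clock regulated, and all samples share this line. They were entrained for 7 d to cycles of 12 h of light and 12 h of darkness, moved to constant white light, and sampled at intervals of 4 h from 24 h to 68 h. Subjective dawn, circadian time 0 (CT0), fell at 24 h and 48 h, and CT12 to CT24 is called subjective night. Each harvest gave 1 array from whole seedlings, so there is no replicate at any time. The p values set the size of a fitted term only against the scatter of single arrays about the fitted curve.

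Serine carboxypeptidases are enzymes of the secretory pathway and the vacuole. They use a catalytic triad of serine, aspartate and histidine to remove amino acids from the carboxyl end of proteins. The best known is carboxypeptidase Y of the yeast vacuole, a name that the gene table also lists as a synonym of SCPL49. Plants have many such genes, and some of the encoded proteins do not cut peptides but transfer acyl groups from glucose esters. In Arabidopsis, SNG1 makes sinapoylmalate in this way in leaves, SNG2 makes sinapoylcholine in seeds, and BRS1 is a carboxypeptidase linked to brassinosteroid signaling. No such role is assigned here to the 5 genes.

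The values are linear intensities that the authors had already scaled. Medians of the arrays lay between 149.9 and 153.6, and any pair of arrays correlated at 0.979 to 0.992 on the log2 scale. Scanning took 3 days. Scan day 1 held 7 arrays, those of 24 h and of 32 to 52 h, scan day 2 held the last 4, from 56 h on, and scan day 3 only that of 28 h. Late harvests therefore share a scan day. Because RNA came from whole seedlings, a change in the number of cells of a type and a change in RNA per cell cannot be told apart.

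The 5 genes fell into 2 groups by the time of day at which they were most abundant. SCPL49, scpl35 and SCPL43 were highest early or in the middle of the subjective night, at CT12 or CT16 in both cycles. The transcripts of scpl46 and scpl25 were highest at subjective dawn, at CT0 in both cycles. Peak-to-trough ratios of the fitted curves ran from 1.21 for scpl25 to 1.78 for scpl46.

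**Figure D1:**
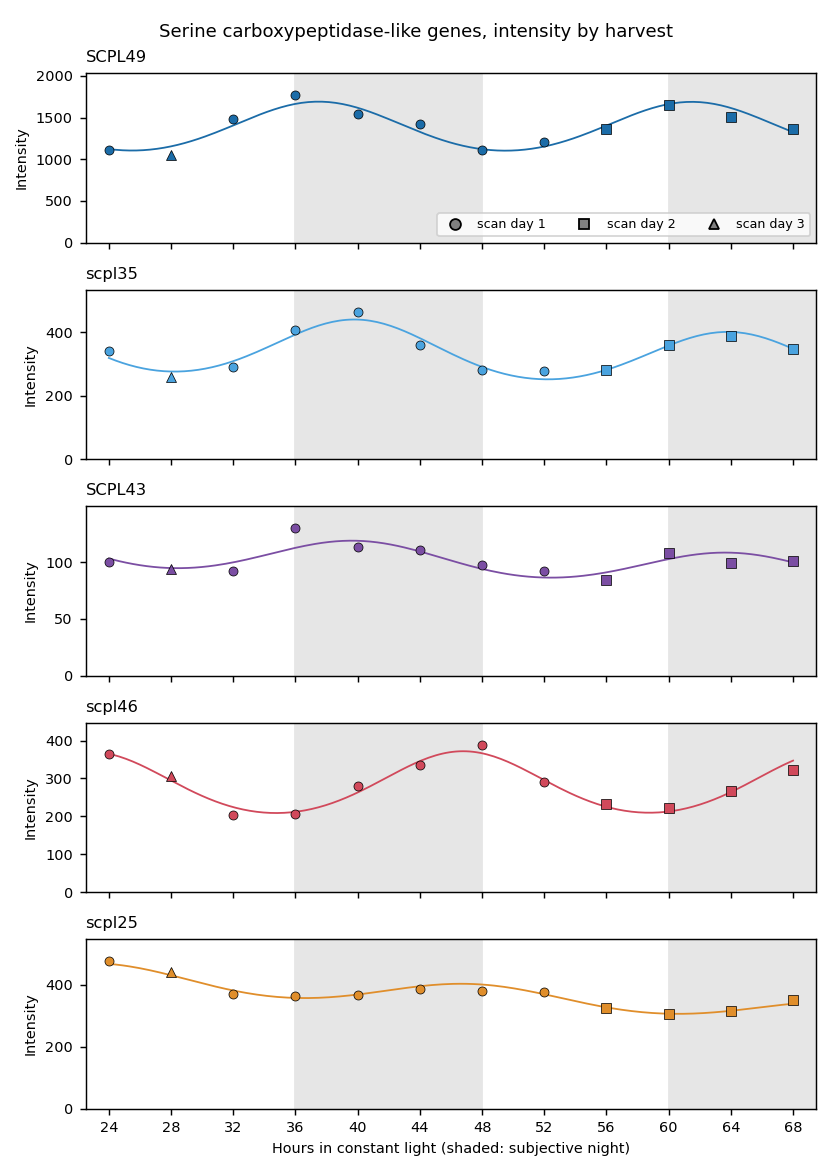
Intensity (linear, from 0) of the 5 genes against hours in constant light, with 1 point per array, marker shape for scan day, and the fitted 24-h cosine with a linear trend as a line. Shaded bands are subjective night. SCPL49, scpl35 and SCPL43 are high inside them, and scpl46 and scpl25 at their end or at dawn. Both scpl25 and SCPL43 are lower at each circadian time of the second cycle than of the first.

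SCPL49 (AT3G10410, probe set 258970_at) had a geometric mean intensity of 1366 over the 12 arrays. In the first cycle its intensity was 1108 at 24 h, 1052 at 28 h, 1480 at 32 h, 1768 at 36 h, 1548 at 40 h and 1425 at 44 h. In the second it was 1117 at 48 h, 1212 at 52 h, 1367 at 56 h, 1654 at 60 h, 1506 at 64 h and 1359 at 68 h. Both cycles thus had their highest value at dusk (CT12) and lower values at CT16 and CT20. The lowest value was at CT4 in the first cycle and at CT0 in the second, before the peak in each. The fitted amplitude, from mean to peak on the log2 scale, was 0.31 (SE 0.04), and the fitted peak was at CT13.49 (SE 0.504 h), shortly after subjective dusk. The highest and lowest intensities differed 1.68-fold in the first cycle and 1.48-fold in the second. The values at CT12, CT16 and CT8 were ordered beyond the pooled SD between the cycles (0.08 on the log2 scale), as were those at CT20 and CT4 (a gap of 0.30), while CT8 and CT20, and CT4 and CT0, were not.

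The second gene of the night group, scpl35 (AT5G08260, probe set 250517_at), had a geometric mean intensity of 332. Its intensity in the first cycle was 340.4 at 24 h, 257 at 28 h, 291 at 32 h, 406 at 36 h, 464 at 40 h and 359 at 44 h. The second cycle gave 281 at 48 h, 276 at 52 h, 279.7 at 56 h, 359 at 60 h, 388 at 64 h and 347.5 at 68 h. It was highest in mid-night (CT16) and lowest at CT4 in both cycles, with a smaller range in the second (1.40-fold) than in the first (1.80-fold). The fitted log2 amplitude was 0.37 (SE 0.04), with a fitted peak at CT16.01 (SE 0.408 h). Only CT16 over CT12, and CT20 over CT0, exceeded the SD between cycles (0.13 on the log2 scale) among neighbors in the order of levels. With each cycle's mean removed, that SD was 0.104. The gaps from CT12 to CT20 (0.113) and CT0 to CT8 (0.116) were then also above it, and CT8 to CT4 (0.0982) was not.

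The dimmest of the 5 probe sets was that of SCPL43 (AT2G12480, 263306_at). Its geometric mean intensity of 101 lay close to the lowest of any tested gene, 80.1. The first cycle gave intensities of 100.1 at 24 h, 94.1 at 28 h, 91.9 at 32 h, 129.9 at 36 h, 114 at 40 h and 111 at 44 h. For the second cycle they were 97.8 at 48 h, 92.1 at 52 h, 84.5 at 56 h, 109 at 60 h, 99.3 at 64 h and 101 at 68 h. Both cycles had their lowest value at CT8 and their highest 4 h later, at CT12, then a fall to CT16 and nearly level values at CT16 and CT20. This shape was followed less well by a cosine, which with its trend accounted for 64.5% of the variance against 89.9% for SCPL49 and 91.3% for scpl35. The fitted log2 amplitude was 0.20 (SE 0.05) and the fitted peak CT16.03 (SE 0.883 h), later than the highest measured value. The order of levels beyond CT12 over CT16 did not exceed the SD between cycles (0.11 on the log2 scale). With each cycle's mean removed, that SD was 0.06. The gaps from CT20 to CT0 (0.1), CT0 to CT4 (0.09) and CT4 to CT8 (0.08) were then also above it, and CT16 to CT20 was not.

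The largest log2 amplitude of the 5 was that of scpl46 (AT2G33530, probe set 255842_at), 0.42 (SE 0.04). Its intensity was 364 at 24 h, 307 at 28 h, 204 at 32 h, 206 at 36 h, 279.5 at 40 h and 336 at 44 h. One day later the values were 389 at 48 h, 291 at 52 h, 233 at 56 h, 221 at 60 h, 267 at 64 h and 322 at 68 h. The range was 1.78-fold in the first cycle and 1.76-fold in the second, the most even of the 5. The levels at CT0, CT20, CT4, CT16 and CT8 followed in that order with every gap above the SD between cycles (0.08 on the log2 scale), and CT8 and CT12 were not separated. The fitted peak was at CT22.77 (SE 0.386 h), and the geometric mean intensity was 279. Of the 1012 genes called rhythmic across the table, whose median log2 amplitude was 0.24, 145 had a larger amplitude than scpl46.

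The other dawn gene, scpl25 (AT3G02110, probe set 258857_at; geometric mean intensity 369), had a small amplitude and lower values in the second cycle. Its intensity was 475 at 24 h, 442 at 28 h, 368 at 32 h, 365 at 36 h, 368 at 40 h and 387 at 44 h. The corresponding values in the second cycle were 381 at 48 h, 377 at 52 h, 324 at 56 h, 306 at 60 h, 314 at 64 h and 349.7 at 68 h. All 6 values of the second cycle were below those at the same circadian time of the first. This also held for all 6 values of SCPL43, and for 5 of scpl35, 4 of SCPL49 and 3 of scpl46. The highest (CT0) and the lowest (CT12) time of scpl25 were nonetheless the same in both cycles. With the trend in the fit, the log2 amplitude was 0.14 (SE 0.03) and the peak CT23.62 (SE 0.922 h). Without it they were 0.18 and CT1.07. No gap between neighboring levels exceeded the SD between cycles of 0.17 on the log2 scale. Once each cycle's mean was removed that SD was 0.04, and the gaps from CT0 to CT4 (0.06), CT4 to CT20 (0.15) and CT20 to CT8 (0.09) were above it.

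**Figure D2:**
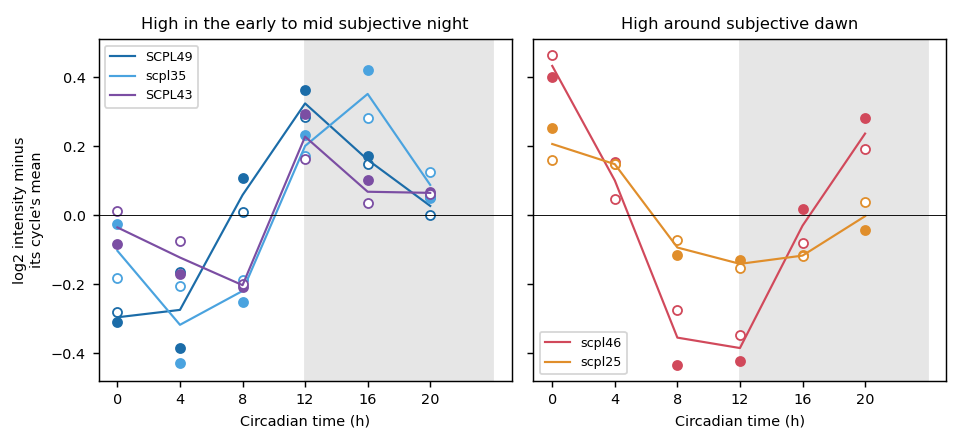
Log2 intensity minus the mean of its cycle against circadian time (h), filled points for the first cycle (24 to 44 h), open points for the second (48 to 68 h), and lines through their mean, with 1 array per point and subjective night shaded. The highest time was the same in both cycles for each of the 5 genes, and SCPL49, scpl35 and SCPL43 (left) are high where scpl46 (right) is low or climbing.

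All 5 genes passed the test for a 24-h rhythm at an adjusted p below 0.05 (limma, Benjamini-Hochberg over all tested genes), as did 11.0% of the 9161 genes tested. The genes had been chosen on this contrast, and nothing is read from that count. The gene closest inside the threshold was SCPL43 (adjusted p = 0.0481 from limma), and the family gene closest outside was scpl48 (adjusted p = 0.0791), with a log2 amplitude of 0.14 (SE 0.04) and a fitted peak at CT4.00. These values describe where the selection ended. SCPL49, scpl35 and scpl46 stayed below the threshold in each of 22 other settings of the processing. Membership of the other 2 was less stable, with scpl25 below it in 11 of 22 and SCPL43 in 2 of 21.

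Within the night group, peak times were spread over less than 3 h. SCPL49 peaked 2.52 h (SE 0.648 h) before scpl35, and the fitted peaks of scpl35 and SCPL43 lay 0.02 h apart (SE 0.972 h). Over the 12 times, log2 intensities of SCPL43 and scpl35 had a Pearson r of 0.79, SCPL49 and scpl35 of 0.70, and SCPL43 and SCPL49 of 0.60. In the dawn group, scpl46 and scpl25 peaked 0.85 h apart (SE 0.999 h), with r of 0.57. The pair most nearly opposite in time was SCPL49 and scpl25, whose peaks were 10.1 h apart (SE 1.05 h) with r of -0.69, followed by SCPL49 and scpl46 at 9.28 h (SE 0.635 h) with r of -0.75. These correlations describe 12 points that share arrays and scan days. Against GIGANTEA (GI), a clock gene expressed in the evening whose fitted peak was at CT10.5 (SE 0.496 h), SCPL49 followed after 2.97 h (SE 0.707 h), scpl35 after 5.49 h (SE 0.642 h), SCPL43 after 5.51 h (SE 1.01 h), scpl46 after 12.3 h (SE 0.628 h) and scpl25 after 13.1 h (SE 1.05 h).

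A gene selected on a 24-h rhythm over both cycles has to repeat between them, so the likeness of the cycles is a description. The Pearson r between them over the 6 circadian times was 0.92 for SCPL43, 0.95 for SCPL49, 0.94 for scpl25, 0.91 for scpl35 and 0.95 for scpl46. A further fit held a separate mean and cosine for each cycle and no trend term, so its values are not directly comparable with those of the fit with a trend. For scpl25 the latter gave a log2 amplitude of 0.14 and a peak at CT23.62. In the fit by cycle, the log2 amplitude was smaller in the second cycle for all 5, from 0.36 to 0.26 for SCPL49, from 0.38 to 0.27 for scpl35, from 0.20 to 0.11 for SCPL43, from 0.45 to 0.38 for scpl46 and from 0.19 to 0.17 for scpl25. None of these differences passed the test. Among the other tested family genes the amplitude went either way, as in scpl22 (0.19 to 0.11) and scpl42 (0.12 to 0.15). The share of all tested genes with a smaller amplitude in the second cycle was not computed. By limma's moderated F-test on the cosine and sine of each cycle, 0 of the 5 genes differed between cycles (adjusted p from 0.847 to 0.99, 0 at an unadjusted p below 0.05), against 0.0437% of all tested genes. Peak times shifted least for scpl25 (CT1.13 to CT0.996), SCPL49 (CT13.59 to CT13.33) and scpl35 (CT16.14 to CT15.84). They moved by 0.47 h for scpl46 and by 1.69 h for SCPL43, the dimmest and least well fitted. When the period was not held at 24 h, the best fit from 19 to 29 h was 24.0 h for SCPL49, 24.5 h for scpl46, 23.5 h for scpl35 and scpl25, and 25.0 h for SCPL43.

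A second peak within the day would appear as a 12-h component. None was called by limma for the 5 genes (0 at an unadjusted p below 0.05, lowest p 0.251), nor for any tested gene (0%, with 363 of 9161 at an unadjusted p below 0.05). The 12-h log2 amplitudes ran from 0.02 for scpl25 to 0.08 for SCPL43.

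Change over days in constant light was not itself a quantity of the selection, but the rhythm fit held a trend term. Without that term scpl25 and SCPL43 were not called rhythmic, so their trends are not independent of how they were chosen. The trend of scpl25 was the steepest of the 5, at -0.22 per 24 h on the log2 scale (SE 0.04, 0.857-fold per 24 h), but its adjusted p of 0.0713 missed the threshold in limma. Trends of scpl35 (-0.13, SE 0.05) and SCPL43 (-0.13, SE 0.06) also missed it, with adjusted p of 0.299 and 0.373, and those of SCPL49 (-0.0021, SE 0.05) and scpl46 (0.0057, SE 0.05) were near 0. By limma 0 of the 5 were called for a trend, with scpl25, scpl35 and SCPL43 at an unadjusted p below 0.05. Among all genes tested, 0.0109% were called falling and 0.0109% rising, and 1204 of 9161 had an unadjusted p below 0.05.

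The lower level of scpl25 in the second cycle was also seen in the only pair of arrays of the same circadian time that shared a scan day. From 24 h to 48 h, both CT0 and both on scan day 1, its intensity went from 475 to 381, a ratio of 0.801. This pair is 1 array against 1 array, and its ratio was the lowest for scpl25, beside 0.84 to 0.904 at the other circadian times. Its fitted trend was -0.23 per 24 h (adjusted p = 0.661) with scan day as a block and -0.24 (adjusted p = 0.859) in the 7 arrays of scan day 1. The trend passed the threshold with the upper 50% of genes by intensity (adjusted p = 0.0337), with 32 added before log2 (0.0487) and with quantile normalization (0.0483), over a range of adjusted p from 0.0337 to 0.859. The same CT0 pair gave a ratio of 0.825 for scpl35, 0.977 for SCPL43, 1.01 for SCPL49 and 1.07 for scpl46. For SCPL43 the trend was only -0.0044 per 24 h with scan day as a block and -0.01 within scan day 1, while that of scpl35 was -0.13 and -0.14. The part of scan day in these trends was not tested beyond those values.

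**Figure D3:**
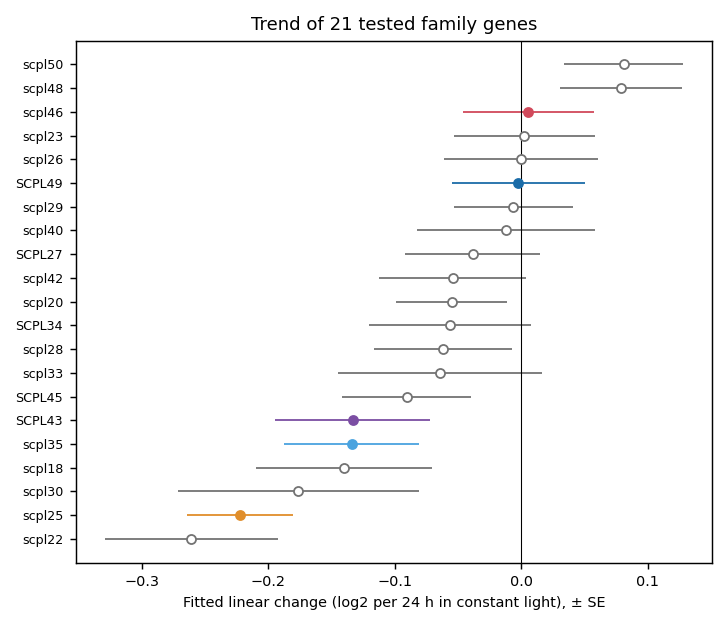
Fitted linear change in log2 intensity per 24 h in constant light (point) with its SE (bar) for the 21 tested family genes, filled for the 5 selected genes and open for the 16 others. The points run from -0.26 for scpl22 to 0.08 for scpl50, 17 of 21 lie below 0, some by less than their SE, and none passed the test.

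The gene table lists 51 serine carboxypeptidase-like genes. A further 24 besides the 5 are named by 1 probe set here, 2 probe sets that name several genes were not used, and SNG1, SNG2 and BRS1 were not analysed here. Of the 24, 8 lay below the intensity filter (geometric means of 39.1 to 71.5) and 16 were tested. None of the 16 was called rhythmic by limma (5 at an unadjusted p below 0.05), which follows from the way the 5 were chosen from this family. The median log2 amplitude of the 16 was 0.10, beside 0.09 for all tested genes and 0.31 for the 5. The highest among the 16 was 0.18 (scpl22; fitted peak CT17.67, SE 1.13 h), which is above the amplitude of scpl25 and below that of SCPL43. Fitted peaks of the 16 lay from CT12 to CT20 for 8 of them, from CT20 to CT24 for 1, from CT0 to CT4 for 4 and from CT8 to CT12 for 3. Their r between cycles ran from -0.77 (SCPL45) to 0.73 (scpl18), below that of the 5, which the selection on a rhythm common to both cycles fixes. One untested gene, scpl16, had a log2 amplitude of 0.21 (SE 0.05) and a fitted peak at CT16.26, close to SCPL43, at a geometric mean intensity of 47.8.

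**Figure D4:**
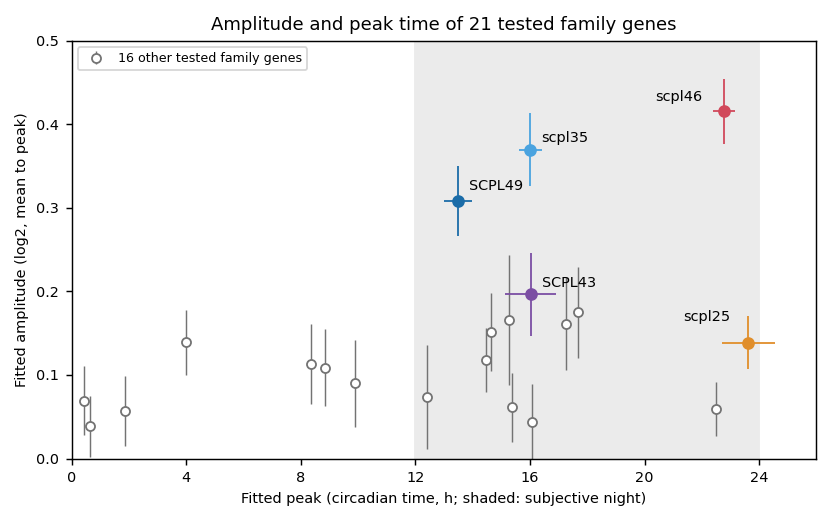
Fitted log2 amplitude (mean to peak) against fitted peak time in circadian hours for the 21 tested family genes, with SE bars (amplitude for all, peak time for the 5 selected genes only) and subjective night shaded. The 5 named genes were selected on these quantities; the 16 others (open) have amplitudes up to 0.18, and scpl25 (0.14) lies within their range.

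Over the 21 tested family genes the trend was downward in 17 and upward in 4, with a median of -0.05 per 24 h on the log2 scale. The median of all tested genes was 0.00098, and 49.5% had a downward sign. The 17 include scpl25 and SCPL43, whose trends are not independent of the selection. They also include values near 0, such as scpl26 (-0.00016, SE 0.06) and SCPL49 (-0.0021, SE 0.05), and the 4 include scpl23 (0.0024, SE 0.06). Late harvests share a scan day, and its part in these signs was not tested. No family gene was called for a trend by limma. The lowest trend was that of scpl22 (-0.26, SE 0.07, adjusted p = 0.157), at a geometric mean intensity of 92.7.

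Few listed genes that act beside such enzymes were matched here. The lists hold names, some of them synonyms of the same gene, and a name was used only where it matched a single gene. Of 11 listed names for sinapate ester metabolism, 4 gave tested genes, of which 2 were rhythmic, beside 11.0% of all tested genes. UGT84A1 and UGT84A3, glucosyltransferases that make the glucose esters used by the acyltransferase members of the family, had log2 amplitudes of 0.28 (SE 0.06, CT21.8, adjusted p = 0.0132 from limma) and 0.28 (SE 0.04, CT14.9, adjusted p = 0.00183). The former peaked near scpl46 and the latter between SCPL49 and scpl35. UGT84A4 (0.04) and REF1 (0.03), an aldehyde dehydrogenase that forms sinapate, did not pass. The median log2 amplitude of the list was 0.16, beside 0.09 for all tested genes.

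Of 35 listed names for vacuolar and secreted proteases of other families, 7 gave tested genes, with a median log2 amplitude of 0.12. Of these 7, 1 was rhythmic, a share near the 11.0% of all tested genes. It was GAMMA-VPE, a vacuolar processing enzyme, with a log2 amplitude of 0.14 (SE 0.04, CT8.54, adjusted p = 0.0453 from limma), between the fitted peaks of the dawn group and those of the night group. ALPHA-VPE, BETA-VPE, DELTA-VPE, the subtilases ARA12 and SBT3.3 and the aspartic protease APA1 did not pass. Of 15 listed names for brassinosteroid reception only BRL1 was matched here, below the filter. No gene of these lists was called for a trend.

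Listed markers of green tissue, root and guard cells had values here, and no presence call was used. The 10 names listed for green tissue gave 5 genes here, all tested, among them RCA, the Rubisco activase (intensity 7618 to 12780). RCA (CT23.4), LHCB4.1 (CT5.63), LHCB4.2 (CT4.05) and SBPASE (CT19.5) were rhythmic and PRK was not, so these markers shared no peak time. The 3 named root markers of 7 listed were not called rhythmic, with intensities of 178 to 264 for EXPA7, 315 to 472 for EXPA18 and 9081 to 10840 for PYK10. The guard cell marker FAMA (115 to 157, 1 of 3 listed) was not called either. The seed, flower, phloem and xylem lists had no gene named here. None of these markers was called for a trend, and their part in the profiles of the 5 genes was not tested.

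The tested genes with the profile most like each of the 5 were found by Pearson r of log2 intensity over the 12 times. For SCPL49 they were CHL, a chloroplastic lipocalin (r = 0.97, fitted peak CT13.63), AT5G62720 (0.97, CT13.18) and AT4G34950 (0.96, CT13.38). Their log2 amplitudes of 0.63 to 0.84 were above the 0.31 of SCPL49. For scpl46 they were AT1G67360 (r = 0.98, CT22.66), AT5G47610 (0.96, CT22.48) and CHIL, a chalcone isomerase-like gene (0.96, CT22.12). Their log2 amplitudes were 0.30, 0.44 and 0.68, beside 0.42 for scpl46. The closest to scpl35 were AT4G14000 (0.95), AT2G32060 (0.93) and AT3G07110 (0.91), with fitted peaks from CT15.5 to CT16.65 and log2 amplitudes of 0.11 to 0.15, below the 0.37 of scpl35. AT1G14820 (0.93), AT2G15520 (0.92) and AT1G78740 (0.91) were closest to SCPL43, with fitted peaks from CT15.04 to CT16.75 and log2 amplitudes of 0.12 to 0.16, below its 0.20. Those closest to scpl25 were AT1G23030 (0.93, CT1.18), AT1G65295 (0.91, CT0.358) and AT4G23740 (0.90, CT21.85), with log2 amplitudes of 0.06, 0.17 and 0.10. For each of the 5 these are the 3 highest r of 9160, given as a description.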

How the data were processed

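Transcript levels came from 12 Affymetrix ATH1 arrays, 1 per harvest, grouped by the hour in constant light given in the sample titles. For 22810 probe sets, the authors deposited already scaled values of intensity on a linear scale. MAS5 is named in the submitters' notes, dChip (expression) and MAS 5.0 (presence calls) in the methods, and no source used here tells the one behind the table. The authors also deposited array records of other content, of which only the scan day was used.

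Names came from the platform annotation in GEO and RefSeq's gene table. Of 13513 with 1 symbol, 13436 matched by gene number and 48 by locus, and 503 with several symbols and 8794 with none were left out. A floor of 1 (reached by 2 to 12 values an array) preceded log2. Of 13415 nuclear probe sets (13264 genes) those in the upper 69% of mean log2 values were tested, 1 per gene, which left 9161 genes. In limma 3.58.1 (R 4.3.3), each gene's model held a linear trend and the sine and cosine of 24 h (8 residual degrees of freedom). The rhythm was tested by a moderated F-test and the trend by its moderated statistic. Terms for each cycle (24 to 44 h against 48 to 68 h) and for a 12-h wave were tested in fits with 6. Benjamini-Hochberg adjustment ran over all genes, at 0.05. Precision is limited by the number of arrays. The fits were also run on simulated data, in which each gene's scatter about its fitted curve was shuffled over the 12 arrays. Such data carry no effect of scan day, so that run cannot speak to it, and its outcome is not reported here. The SD between cycles pools the pairs of values at the same circadian time.

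The 5 genes and all lists were chosen with earlier results of these data known. Named are those genes, their family, the 3 most similar profiles of each, GI and the genes of the lists. Sequences and coordinates were not analysed here. Results were recomputed without the trend term, without the filter, with the upper 50%, on linear intensities, with 32 added before log2, after quantile normalization, with scan day as a block, in scan day 1 only, without probe sets ending in _s_at or _x_at, with each time left out, at the best period, and at a threshold of 0.01. Leaving out 28 h and 56 h together was added after seeing the data. Tables and plots were made in Python 3.11.15 with numpy 2.4.6, pandas 2.3.3 and matplotlib 3.10.9.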

Additional observations from a re-analysis of the deposited data

How the results depend on the processing

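Of the 9161 genes tested, 1012 were rhythmic. The count was 618 with no intensity filter, 290 in scan day 1 only, 439 at an adjusted p below 0.01 and 469 without 28 h and 56 h (added after seeing the data), and leaving out each time in turn gave 614 (without 56 h) to 1070. The trend count of 2 was 22 with the upper 50% by intensity, 12 with 32 added before log2, 9 with quantile normalization, and 0 with scan day as a block, in scan day 1 only, without 28 h and 56 h, or at 0.01, with a range of 0 to 18 when each time was left out. For the difference between cycles, the count of 4 was 0 with no intensity filter, with scan day as a block or without probe sets ending in _s_at or _x_at, 1 with the upper 50% or quantile normalization, and 0 to 7 when each time was left out. The 12-h count was 0 under every alternative run. Of the 5 genes, the number called rhythmic was 3 with no trend term, no intensity filter, scan day as a block, scan day 1 only, or without 28 h and 56 h. It was 4 with the upper 50% (which removed SCPL43), linear intensities, 32 added before log2, or quantile normalization, and leaving out each time in turn gave 3 to 5. SCPL49, scpl35 and scpl46 were called in each (highest adjusted p = 0.0281, 0.0454 and 0.00401 by limma). Adjusted p reached 0.403 for scpl25 and 0.282 for SCPL43. Log2 amplitudes ranged from 0.28 to 0.33 for SCPL49, 0.33 to 0.42 for scpl35, 0.15 to 0.23 for SCPL43, 0.37 to 0.46 for scpl46 and 0.13 to 0.18 for scpl25. Fitted peaks ranged from CT13.04 to CT13.67 for SCPL49, CT15.76 to CT16.95 for scpl35, CT14.32 to CT17.15 for SCPL43, CT21.86 to CT23.04 for scpl46 and CT23.33 to CT1.07 for scpl25. The causes were not tested. The difference between cycles was not run without 28 h and 56 h, nor, like the 12-h component, in scan day 1 only, and its fit holds no trend term to remove. No paired analysis was possible because each group is 1 time with 1 array; the cycles were compared in the fit.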
